A study of Homo sapiens with 29 samples.

Results

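Transcript levels of 10 ligands and receptors of the tumour necrosis factor (TNF) superfamily were followed in human fibroblasts made senescent by an oncogene, with and without depletion of SMARCA4. The 10 genes were taken by name as 5 ligands (TNFSF15, TNF, TNFSF10, TNFSF4 and TNFSF9) and 5 receptors (TNFRSF9, TNFRSF11B, TNFRSF1B, TNFRSF21 and CD40) out of 28266 gene symbols in the count table. The choice used no threshold on their values but was made with earlier results of these data known. The cells were IMR90 ER:RAS, a lung fibroblast line infected with a retrovirus that encodes RAS G12V fused to the estrogen receptor. The fusion is switched on by 4-hydroxytamoxifen (4OHT), so every library came from cells that carry the transgene. DMSO_siNT cells received solvent and non-targeting siRNA and stand for growing cells. 4OHT_siNT cells received 4OHT and non-targeting siRNA and are senescent. 4OHT_siSMARCA4 cells received 4OHT and siRNA to SMARCA4, an ATPase of the SWI/SNF chromatin remodeller. RNA was taken at day 7 from cells that had been given siRNA the day before 4OHT. Each group held 6 libraries, 3 with siRNA number 2 and 3 with number 4. The same number names different siRNAs in the siNT and SMARCA4 arms. A knockdown change with a number alone therefore depends on both of them. Nothing in the labels says whether libraries came from separate cultures, so p-values measure only the spread between these libraries.

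Ligands of the superfamily are trimers that sit on the cell membrane or are cut from it, and they signal by clustering receptors with cysteine-rich extracellular repeats. Some receptors carry a death domain that can recruit caspases, others bind TRAF adaptors and switch on NF-kappaB, and a few are decoys that bind ligand without signalling. In senescent fibroblasts NF-kappaB drives much of the secreted inflammatory programme, and several superfamily ligands act on T cells and natural killer cells, which clear senescent cells.

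The libraries held 9657309 to 18039313 counted reads. Levels are given in CPM, the read count scaled to the depth of the library. SMARCA4 itself ran from 189 to 232 CPM in DMSO_siNT (median 219), from 275 to 330 CPM in 4OHT_siNT (median 297) and from 70.4 to 141 CPM in 4OHT_siSMARCA4 (median 89.9), with no overlap. It fell by 1.61 ± 0.14 on the log2 scale on knockdown (SE, edgeR's quasi-likelihood test with Benjamini-Hochberg adjustment, adjusted p = 1.3e-06). All 11 fibroblast markers exceeded 1 CPM and together made 16016 to 46291 CPM in every library. In senescence 2 of them were called higher and 5 lower, beside 52.8% of all genes called, and on knockdown 8 were lower, beside 10.6%. The part of these markers in the members' changes was not tested. The 13 leukocyte markers summed to 0.57 to 1.46 CPM in DMSO_siNT and to 1.37 to 5.27 CPM in the senescent groups, with ITGAX at a mean of 2.33 CPM in 4OHT_siNT, and the pan-leukocyte gene PTPRC had at most 4 reads in any library. The 6 endothelial markers summed to 4.59 to 11.9 CPM in growing and 9.08 to 16.3 CPM in senescent libraries, and the 6 epithelial markers to 103 to 144 CPM in growing and 34.1 to 78.9 CPM in senescent ones. The epithelial sum came mostly from keratin genes, with DMSO_siNT means of 63.2 CPM for KRT18, 42.1 for KRT19 and 13.5 for KRT8. EPCAM averaged 1.32 CPM there, CDH1 0.0639 CPM and SFTPC 0 CPM. In a bulk sample a loss of cells and a loss of RNA per cell cannot be told apart. Sets named V and VM in the labels, whose meaning is not stated, were unevenly spread. The 6 4OHT_siNT libraries were all VM, DMSO_siNT had 3 of each, and 4OHT_siSMARCA4 had 3 V, 2 VM and 1 library whose set matched no label. The count table names that library 1VM, a set that no label with its siRNA carries, and it is called unlabelled here. In 4OHT_siSMARCA4 the sets were 3V, 3VM and the unlabelled library with siRNA 2, and 2V, 3V and 2VM with siRNA 4. In DMSO_siNT they were 1V, 2V and 2VM with siNT 2, and 2V, 2VM and 3VM with siNT 4. Differences by siRNA number that involve these groups therefore cannot be told apart from set. The DMSO_siNT library 4-2V stood apart, with the lowest total and 17915 genes detected against 16385 to 16666 in the other libraries of that group.

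Windows are printed here for a selection of the members. They lie before the starts of TNFSF15 and TNFSF9, which rose in senescence, and of TNFRSF1B and TNFRSF21, which moved oppositely on SMARCA4 knockdown. They are the 250 bases upstream of the RefSeq start (GRCh38.p14), read 5′ to 3′ on the strand of the gene, from chr9:114792531-114792780 (minus strand), chr19:6530776-6531025 (plus), chr1:12166741-12166990 (plus) and chr6:47309906-47310155 (minus). Capitals mark an AP-1 match (TGANTCA) or a TATA match (TATAAA), searched on both strands.
TNFSF15: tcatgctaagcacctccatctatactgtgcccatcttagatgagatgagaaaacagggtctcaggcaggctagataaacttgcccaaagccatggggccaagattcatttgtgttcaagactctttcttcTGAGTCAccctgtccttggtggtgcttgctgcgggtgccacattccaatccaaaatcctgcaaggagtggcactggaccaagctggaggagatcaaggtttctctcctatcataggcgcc
TNFSF9: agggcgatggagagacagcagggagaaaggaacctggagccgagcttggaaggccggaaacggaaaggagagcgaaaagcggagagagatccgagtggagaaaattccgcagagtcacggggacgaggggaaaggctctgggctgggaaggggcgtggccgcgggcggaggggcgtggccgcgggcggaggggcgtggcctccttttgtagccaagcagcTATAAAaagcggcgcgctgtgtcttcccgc
TNFRSF1B: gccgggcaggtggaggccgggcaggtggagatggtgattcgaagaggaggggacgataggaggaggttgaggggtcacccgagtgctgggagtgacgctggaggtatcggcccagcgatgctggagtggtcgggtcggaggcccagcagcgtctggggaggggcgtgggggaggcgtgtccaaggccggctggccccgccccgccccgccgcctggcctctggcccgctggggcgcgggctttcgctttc
TNFRSF21: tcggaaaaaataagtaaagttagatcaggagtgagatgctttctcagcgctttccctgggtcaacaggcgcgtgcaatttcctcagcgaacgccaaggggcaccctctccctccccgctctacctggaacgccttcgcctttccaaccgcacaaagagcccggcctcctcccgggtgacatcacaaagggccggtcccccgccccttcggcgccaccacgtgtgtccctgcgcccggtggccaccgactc
RefSeq entries were found for 8 of the 10 members, all but TNFRSF11B and CD40. TNFSF15 held an AP-1 match at 120 to 114 bases before its start, and TNFSF9 a TATA match at 30 to 25 bases. The windows of TNFRSF1B and TNFRSF21 held neither. The TNFSF15 window belongs to the shorter annotated transcript and lies in an intron of the longer GENCODE transcript, and the counts do not separate the transcripts. Among the members not printed, TNF and TNFSF10 held a TATA match, TNFRSF9 held an AP-1 match and an NF-kappaB consensus on both strands, and TNFSF4 held none. The TNFSF4 and TNFRSF9 windows lie inside the GENCODE gene, with 192 and 94 exonic bases, and the TNFSF10 window holds 45. Among 35116 RefSeq windows of the same length, 6.57% held the AP-1 letters, 10.7% the TATA letters and 5.21% the NF-kappaB consensus. The NF-kappaB matches on the 2 strands of TNFRSF9 overlap each other and no other match does. A match is a description of letters only.

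The comparison of 4OHT_siNT with DMSO_siNT is called senescence here. In it 4OHT, active RAS and senescence come together and cannot be told apart. Of the 6 members with enough reads for the test, 4 were called at an adjusted p under 0.05. TNFSF15, TNFSF9 and TNFRSF21 were higher and TNFSF4 was lower. Of all 13136 genes tested, 52.8% were called, 23.9% higher and 28.9% lower, so a call by itself does not set a member apart. In the comparison of 4OHT_siSMARCA4 with 4OHT_siNT, which asks what loss of SMARCA4 does to senescent cells, TNFSF9 and TNFRSF1B were higher and TNFSF4 and TNFRSF21 were lower, 4 of 6, beside 10.6% of all genes, 4.99% higher and 5.65% lower. The other 4 members, TNF, TNFSF10, TNFRSF9 and CD40, were removed by the filter on low counts. The comparisons share the 4OHT_siNT libraries. The median log2 fold change over all genes tested was -0.05 and 0.01.

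**Figure D1:**
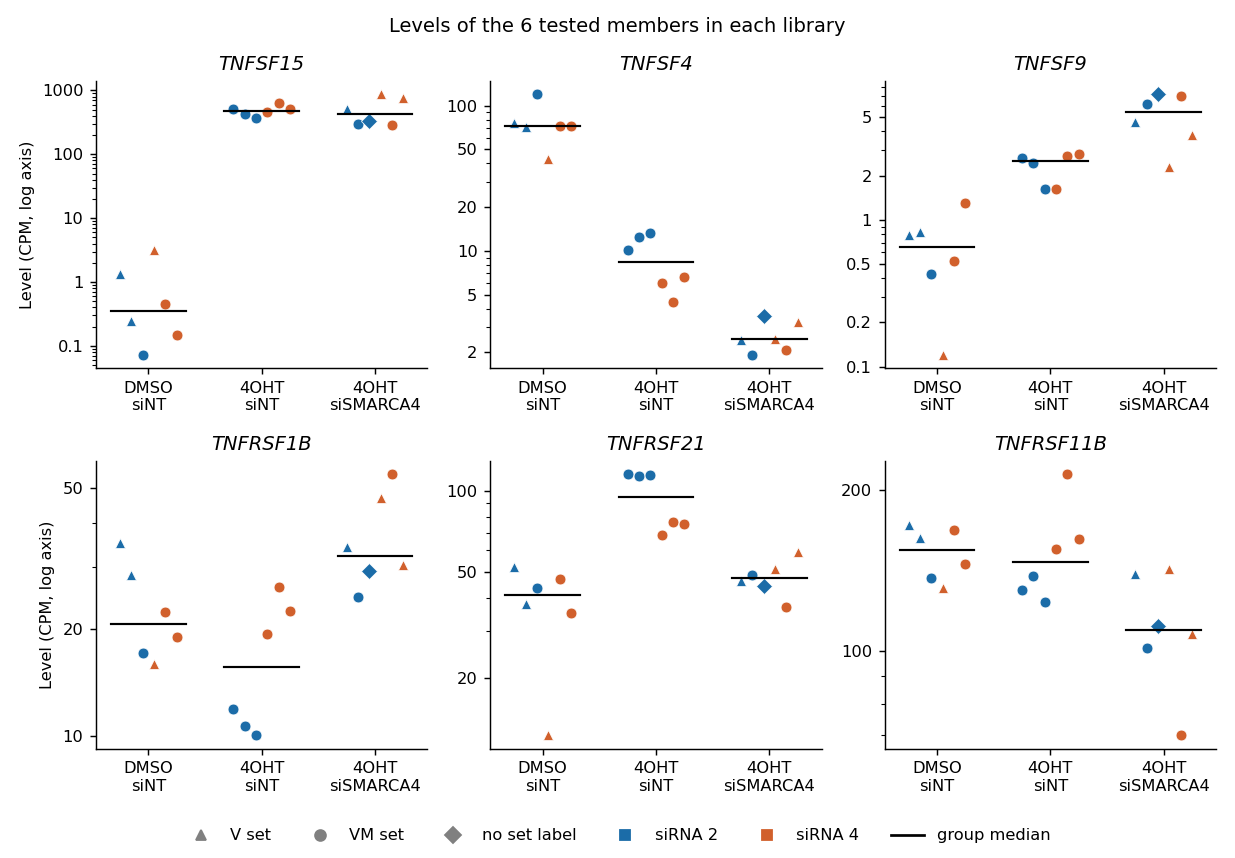
Level of the 6 tested members in each of the 18 libraries, in CPM on a log axis, by group. Colour gives the siRNA number, shape the set, and the bar the group median. TNFSF15 runs from 0.0714 to 3.23 CPM in DMSO_siNT and from 367 to 633 CPM in 4OHT_siNT, and TNFSF4 steps down through the 3 groups.

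Among the ligands, TNFSF15 had the widest range. It encodes TL1A, the ligand of death receptor DR3, and lies at chr9:114784652-114806039 on the minus strand (GRCh38, as for all positions here). In DMSO_siNT its level ran from 0.0714 to 3.23 CPM with a median of 0.347 CPM (1 to 27 reads), in 4OHT_siNT from 367 to 633 CPM with a median of 484 CPM, and in 4OHT_siSMARCA4 from 290 to 877 CPM with a median of 424 CPM. Every senescent library lay above every growing one. The rise in 4OHT_siNT was 9.22 ± 0.59 on the log2 scale (SE, 595-fold, adjusted p = 1.71e-10). The highest growing library was the one that stood apart, 4-2V, and without it the log2 fold change was 10.02. The 3 DMSO_siNT V libraries ran from 0.247 to 3.23 CPM and the 3 VM libraries from 0.0714 to 0.448 CPM, and within VM sets alone the rise was 11.06 ± 0.32.

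SMARCA4 knockdown gave no call for TNFSF15 over all libraries, with a log2 fold change of 0.08 ± 0.39 (adjusted p = 0.934), and the groups overlapped. The knockdown libraries fell apart by set. The 3 V libraries stood at 519, 759 and 877 CPM, while the 2 VM libraries stood at 290 and 301 CPM and the library with no set label at 330 CPM. The latter 3 lay below all 6 4OHT_siNT libraries, whose lowest was 367 CPM. Within VM sets alone TNFSF15 was called lower, at -0.74 ± 0.18 (adjusted p = 0.00985, 2 knockdown against 6 control libraries). With the unlabelled library added the change was -0.68 (adjusted p = 0.00278). Within VM sets 21% of 13615 genes were called, and all 6 tested members were among them, with TNFSF9 and TNFRSF1B higher and the others lower. Remaining SMARCA4 was 92.7 to 141 CPM in the V libraries and 70.4 to 87 CPM in the other 3. Its part in the TNFSF15 levels was not tested, and no 4OHT_siNT library of a V set was analysed here, so set and knockdown cannot be told apart in those libraries.

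TNFSF4 was the member that fell in both comparisons. It encodes OX40 ligand, a costimulator of T cells through the receptor TNFRSF4, and lies at chr1:173183731-173207331 on the minus strand. Its level was 43.1 to 120 CPM in DMSO_siNT (median 72.8), 4.43 to 13.4 CPM in 4OHT_siNT (median 8.42) and 1.91 to 3.55 CPM in 4OHT_siSMARCA4 (median 2.45). No group overlapped another. TNFSF4 fell by 3.10 ± 0.27 on the log2 scale in senescence (8.58-fold, adjusted p = 1.13e-08) and by a further 1.76 ± 0.28 on knockdown (3.39-fold, adjusted p = 0.000593). In 4OHT_siNT the libraries of siNT 2 (10.2 to 13.4 CPM) lay above those of siNT 4 (4.43 to 6.64 CPM). In 4OHT_siSMARCA4 the means were 2.64 CPM with siRNA 2 and 2.59 CPM with siRNA 4. Neither difference between siRNAs was called by edgeR (adjusted p = 0.144 in 4OHT_siNT and 0.99 in 4OHT_siSMARCA4). The knockdown change was -2.18 ± 0.29 with siRNA 2 alone and -1.15 ± 0.30 with siRNA 4 alone. The latter missed the threshold (adjusted p = 0.0504). The difference of these effects was not called (adjusted p = 0.583).

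TNFSF9 rose in both comparisons from a low level. It encodes the ligand of CD137, an activating receptor of T cells and natural killer cells, and lies at chr19:6531026-6535924. Its level was 0.12 to 1.31 CPM in DMSO_siNT (median 0.653), 1.63 to 2.81 CPM in 4OHT_siNT (median 2.52) and 2.3 to 7.19 CPM in 4OHT_siSMARCA4 (median 5.39). The growing and senescent groups did not overlap, while 1 knockdown library, 4-2V at 2.3 CPM, lay inside the 4OHT_siNT range. TNFSF9 rose by 1.73 ± 0.36 on the log2 scale in senescence (adjusted p = 0.000457), where 1 to 18 reads stood behind each growing value. It rose by 1.16 ± 0.31 on knockdown (adjusted p = 0.0202). The V libraries of the knockdown, at 2.3 to 4.65 CPM, were again apart from the VM and unlabelled ones, at 6.13 to 7.19 CPM, and within VM sets the rise was 1.49 ± 0.30 (adjusted p = 0.00293). The call was lost when any 1 of 5 libraries was left out (4OHT_siNT 2-3VM or 4-1VM, 4OHT_siSMARCA4 2-3VM, 4-2VM or the unlabelled one), with adjusted p of 0.0517 to 0.0621 and log2 fold changes of 1.03 to 1.09. It was also lost with siRNA 2 alone (1.43, adjusted p = 0.0626) and siRNA 4 alone (0.83, adjusted p = 0.353).

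TNF and TNFSF10, the founding cytokine of the family and the death ligand TRAIL, were close to absent from the counts. TNF, at chr6:31575565-31578336, had 0 reads in all 6 DMSO_siNT libraries, which allows a level of up to 0.0396 CPM over the group, and 0 to 2 reads in each senescent library (5 reads in all in 4OHT_siNT and 5 in 4OHT_siSMARCA4). These limits cover counting error only. TNFSF10, at chr3:172505508-172523475, had 0 to 13 reads in DMSO_siNT (median 0.324 CPM), 1 to 10 in 4OHT_siNT (median 0.382 CPM) and 0 to 4 in 4OHT_siSMARCA4 (median 0.0806 CPM), and the groups overlapped. Within 4OHT_siNT the siNT 2 libraries stood at 0.0692 to 0.296 CPM, below the siNT 4 libraries at 0.469 to 0.682 CPM. On the log2(CPM + 0.5) scale TNFSF10 was lower by 0.60 after knockdown than in 4OHT_siNT (exact permutation test, two-sided p = 0.0195, adjusted p = 0.169). The adjustment covers 12 such comparisons, of the 4 low members among the 3 groups, in which the smallest possible p was 0.00216, and none passed.

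**Figure D2:**
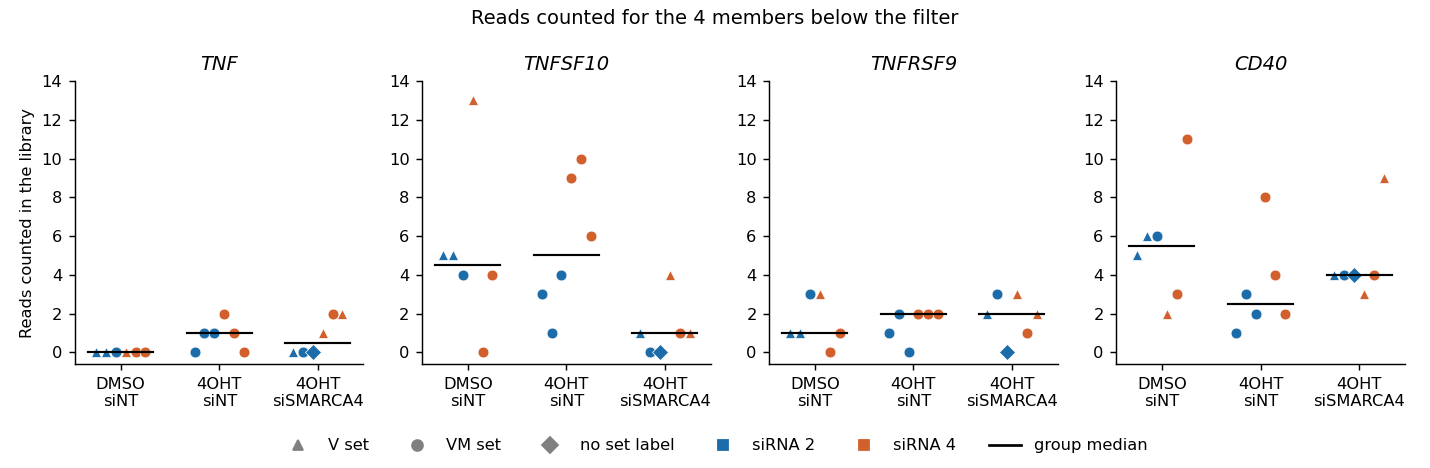
Reads counted per library for the 4 members removed by the filter, on a linear axis, with colour for the siRNA number, shape for the set and a bar for the group median. TNF stays at 0 to 2 reads and TNFRSF9 at 0 to 3 reads, and the highest value is 13 reads of TNFSF10 in the DMSO_siNT library 4-2V.

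Among the receptors, TNFRSF21 rose in senescence and fell on knockdown. It encodes DR6, a receptor with a death domain, and lies at chr6:47231532-47309905 on the minus strand. Its level was 12.2 to 51.9 CPM in DMSO_siNT (median 40.8), 68.3 to 116 CPM in 4OHT_siNT (median 95.4) and 36.9 to 59 CPM in 4OHT_siSMARCA4 (median 47.2). All 4OHT_siNT libraries lay above all others, and the knockdown range overlapped that of growing cells. TNFRSF21 rose by 1.31 ± 0.24 on the log2 scale in senescence (2.48-fold, adjusted p = 0.000144) and fell by 0.98 ± 0.24 on knockdown (1.98-fold, adjusted p = 0.0118). Without the growing library 4-2V, at 12.2 CPM the lowest, the rise was 1.13. The siNT 2 libraries of 4OHT_siNT stood at 114 to 116 CPM and the siNT 4 libraries at 68.3 to 76.8 CPM, and with siRNA 4 alone the knockdown change of -0.60 ± 0.30 was not called (adjusted p = 0.312).

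TNFRSF1B was the only tested receptor among the members that rose on knockdown. It encodes TNFR2, the TNF receptor without a death domain, and lies at chr1:12166991-12209228. Its level was 16 to 35 CPM in DMSO_siNT (median 20.8), 10.1 to 26.4 CPM in 4OHT_siNT (median 15.7) and 24.6 to 54.7 CPM in 4OHT_siSMARCA4 (median 32.2). It rose by 1.12 ± 0.27 on the log2 scale on knockdown (2.18-fold, adjusted p = 0.00995), although the lowest knockdown library lay just inside the 4OHT_siNT range. With siRNA 4 alone the change was 0.94 ± 0.25 (adjusted p = 0.0543). In senescence the change was -0.45 ± 0.27 (adjusted p = 0.158) and differed in sign by siRNA, at -1.29 ± 0.26 with siNT 2 (adjusted p = 0.00078) and 0.25 ± 0.25 with siNT 4 (adjusted p = 0.409). The difference of these effects was -1.54 ± 0.36, with a p of 0.000512 before and 0.0952 after adjustment over all genes. In 4OHT_siNT the siNT 2 libraries stood at 10.1 to 11.9 CPM, below the siNT 4 libraries at 19.4 to 26.4 CPM.

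TNFRSF11B, TNFRSF9 and CD40 gave no call. TNFRSF11B encodes osteoprotegerin, a secreted decoy for RANKL and TRAIL, and stood at 131 to 172 CPM in DMSO_siNT (median 154), 123 to 214 CPM in 4OHT_siNT (median 147) and 69.8 to 142 CPM in 4OHT_siSMARCA4 (median 110), with all groups overlapping. Its log2 fold change was 0.01 ± 0.16 in senescence (adjusted p = 0.967). On knockdown it was -0.46 ± 0.16 (adjusted p = 0.0729), and it passed the threshold within VM sets (-0.86 ± 0.20, adjusted p = 0.00731), in a fit of these 2 groups alone (-0.46, adjusted p = 0.0429), with DESeq2 (-0.47, adjusted p = 0.0367), without DMSO_siNT 4-2V (adjusted p = 0.0276) and without 4OHT_siSMARCA4 4-2V (-0.55, adjusted p = 0.0361). TNFRSF9, the CD137 receptor itself, had 0 to 3 reads in each library of every group. CD40, the receptor that arms antigen-presenting cells, had 2 to 11 reads in growing, 1 to 8 in senescent and 3 to 9 in SMARCA4-depleted libraries. Neither differed between groups in the exact permutation test (smallest adjusted p = 0.344).

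**Figure D3:**
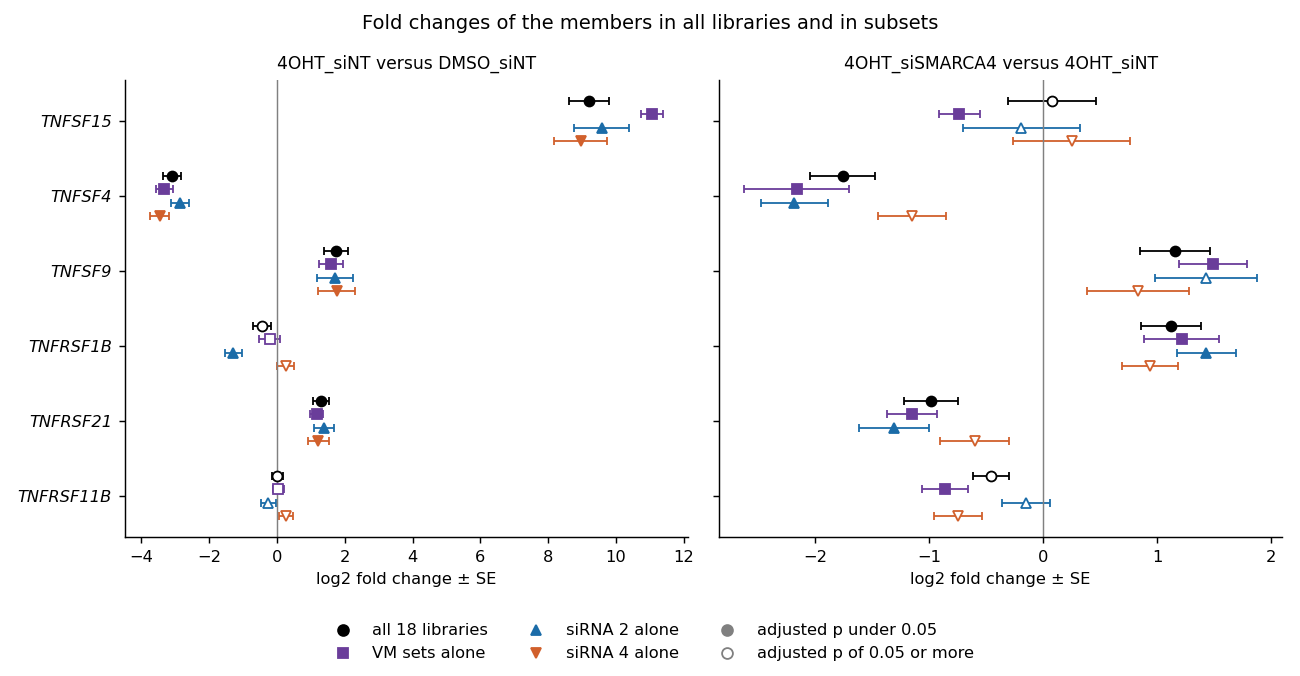
Log2 fold change ± SE of the 6 tested members in senescence (left) and on SMARCA4 knockdown (right), from all 18 libraries, from VM sets alone and from each siRNA number alone. On knockdown a number alone compares the siRNA to SMARCA4 with the siNT siRNA of that number. The sets of the SMARCA4 libraries also differ between the numbers. Filled symbols passed an adjusted p of 0.05. In senescence the 4 calls hold in every subset shown, on knockdown no member is called with siRNA 4 alone, and TNFSF15 is called and lower only in VM sets among these 4 fits.

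The siRNAs of 1 arm were compared directly in a fit with 6 levels, and no member was called by edgeR in any of these tests. Between siNT 2 and siNT 4, 0.0512% of 13659 genes were called in DMSO_siNT and 0.0732% in 4OHT_siNT. At an unadjusted p under 0.05 there were 0 of the 6 members in DMSO_siNT, beside 28.3% of all genes, and 3 of 6 in 4OHT_siNT, beside 10.6%. The latter were TNFSF4 (1.08 ± 0.27 on the log2 scale, higher with siNT 2, adjusted p = 0.144), TNFRSF1B (-1.07 ± 0.26, adjusted p = 0.126) and TNFRSF21 (0.64 ± 0.30, adjusted p = 0.465). In 4OHT_siNT each of these 3 separated the siNT 2 from the siNT 4 libraries without overlap. So did TNFRSF11B (123 to 138 against 155 to 214 CPM) and the low member TNFSF10. The share of all genes that did so was not computed, so these separations do not set the members apart. Between the siRNAs to SMARCA4, 0.00732% of genes were called, and TNFRSF1B was the 1 member of 6 with an unadjusted p under 0.05, beside 6.43% of genes (-0.57, adjusted p = 0.735). The effect of 4OHT differed between the siNT siRNAs for 0% of genes after adjustment and the knockdown effect differed between siRNA numbers for 0.0146%. At an unadjusted p under 0.05, where 23.9% and 7.28% of all genes lay, there was 1 member each, TNFRSF1B for 4OHT and TNFSF4 for the knockdown (-1.03 ± 0.42, adjusted p = 0.583). Within VM sets the senescence comparison called 53.5% of genes and the same 4 members.

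Levels of different genes were compared only after division by exon length, as mean CPM per kb of GENCODE exon. In growing cells the order of the members was TNFRSF11B (60.9 ± 6.89 SD), TNFSF4 (19.2 ± 6.26), TNFRSF21 (10.5 ± 3.89), TNFRSF1B (6.09 ± 1.95) and TNFSF9 (0.407 ± 0.25), with TNFSF15 at 0.118 ± 0.157 beside the low members. In 4OHT_siNT TNFSF15 (62.4 ± 11.7) stood level with TNFRSF11B (61.3 ± 13.1), a difference smaller than either SD, and ranked 4 among the 47 superfamily genes. TNFRSF21 followed at 26.2 ± 6.35, then TNFRSF1B at 4.46 ± 1.83, TNFSF4 at 2.24 ± 0.93 and TNFSF9 at 1.41 ± 0.33. After knockdown TNFSF15 stood at 65.8 ± 32.6 and TNFRSF11B at 44.6 ± 10.7, which overlap within 1 SD, and TNFSF9 (3.17 ± 1.19) had passed TNFSF4 (0.659 ± 0.163). Exon length takes all annotated exons and not the transcript in use, so the scale is approximate.

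**Figure D4:**
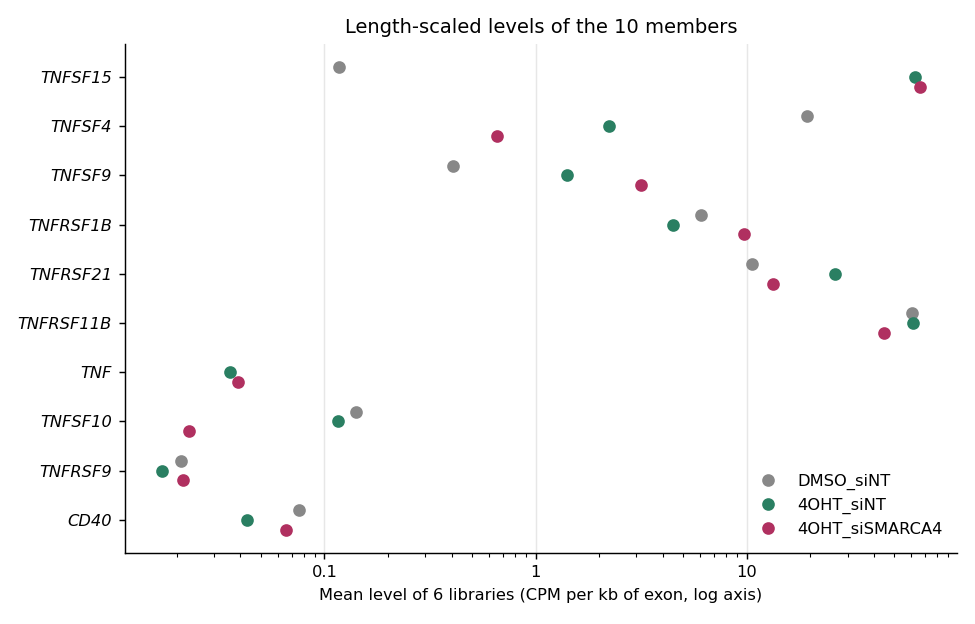
Mean level of the 10 members in each group of 6 libraries, in CPM per kb of exon on a log axis. TNF in DMSO_siNT is at 0 and is not drawn. TNFSF15 moves from 0.118 to 62.4 between growing and senescent cells, and the 4 low members stay under 0.15 in every group.

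Of the other superfamily genes, 3 of 13 ligands and 13 of 24 receptors had enough reads for the test. Among all genes tested, 52.8% were called in senescence and 10.6% on knockdown. Among the ligands TNFSF18 rose and TNFSF12 fell in senescence, and none was called on knockdown. TNFSF18 encodes GITR ligand and is the neighbour of TNFSF4, 132.8 kb away on the same strand. It went from 0.218 ± 0.172 CPM (SD, n = 6) to 1.64 ± 0.48 CPM and rose by 2.76 ± 0.53 on the log2 scale (SE, adjusted p = 0.000208), while TNFSF4 fell. TNFSF12, which encodes TWEAK, went from 14.9 ± 5.64 to 4.76 ± 0.62 CPM and fell by 1.64 ± 0.19 (adjusted p = 8.31e-07). TNFSF8, 87.3 kb from TNFSF15 on the same strand, and CD70, 47.3 kb from TNFSF9, were singled out after their values were seen. They had at most 5 and 3 reads in any library.

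Of the 13 other receptors tested, 6 rose and 1 fell in senescence, beside 52.8% of all genes called. On knockdown 3 fell and none rose, beside 10.6%. TNFSF10 binds TNFRSF10A to TNFRSF10D and the decoy TNFRSF11B, which was not called. TNFRSF10D, a decoy, rose by 1.70 ± 0.23 on the log2 scale (272 to 883 CPM, adjusted p = 3.6e-06), the death receptor TNFRSF10B by 1.34 ± 0.20 (168 to 426 CPM, adjusted p = 1.47e-05) and the death receptor TNFRSF10A by 1.30 ± 0.15 (6.005 to 14.9 CPM, adjusted p = 6.49e-07). On knockdown the decoy TNFRSF10C fell by 1.30 ± 0.28 (7.03 to 2.83 CPM, adjusted p = 0.00501). TNFRSF25, the DR3 receptor of TNFSF15, fell by 0.95 ± 0.23 (8.82 to 4.56 CPM, adjusted p = 0.0133), and FAS by 0.47 ± 0.13 (57.1 to 41.4 CPM, adjusted p = 0.0303). TNFRSF4, the receptor of TNFSF4, had at most 5 reads in any library and was singled out after its values were seen. Of the genes named here TNFSF12, TNFRSF10A, TNFRSF10B, TNFRSF10C, TNFRSF25 and FAS share exonic bases with another gene, so their counts are less certain. Over all 47 genes of the superfamily 22 were tested. In senescence 10 were higher and 3 lower, beside 52.8% of all genes called, and on knockdown 2 were higher and 5 lower, beside 10.6%. The median log2 fold changes of the 22 genes were 0.41 and -0.05.

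The receptor complexes hold the proteins that carry the signal into the cell. Of their 22 genes in the list, all tested, 4 rose and 2 fell in senescence, beside 52.8% of all genes called, and 3 rose and none fell on knockdown, beside 10.6%, with median log2 fold changes of 0.11 and 0.02. BIRC3, which encodes the ubiquitin ligase cIAP2, rose in both comparisons. It stood at 4.08 to 11 CPM in DMSO_siNT (median 6.3), 15.4 to 23.9 CPM in 4OHT_siNT (median 19.5) and 62.2 to 76.8 CPM in 4OHT_siSMARCA4 (median 69.9), with no overlap between groups. It rose by 1.55 ± 0.20 in senescence (adjusted p = 1.97e-06) and by 1.86 ± 0.19 on knockdown (adjusted p = 7.3e-06). Its paralogue BIRC2 rose by 0.68 ± 0.15 (adjusted p = 0.00707) and the kinase gene CHUK by 0.37 ± 0.09 (adjusted p = 0.00854) on knockdown. In senescence the adaptor gene TRAF5 fell by 1.99 ± 0.26 (14.7 to 3.69 CPM, adjusted p = 3.01e-06) and TRAF3 rose by 1.09 ± 0.12 (48.2 to 103 CPM, adjusted p = 4.66e-07).

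Of 11 genes that dampen NF-kappaB, are induced by TNF or shed ligands, 8 rose and 2 fell in senescence, beside 52.8% of all genes called. On knockdown 1 rose and 1 fell, beside 10.6% of all genes. The median log2 fold changes of the 11 genes were 0.76 and 0.16. TNFAIP6 rose by 2.85 ± 0.21 in senescence (1.64 to 11.7 CPM, adjusted p = 1.52e-09) and TNFAIP3, which encodes the deubiquitinase A20, by 2.47 ± 0.25 (7.9 to 43.9 CPM, adjusted p = 1.28e-07). TNFAIP8 went the other way, from 18.6 to 41.7 CPM in DMSO_siNT to 4.97 to 6.95 CPM in 4OHT_siNT, and fell by 2.22 ± 0.22 (adjusted p = 7.09e-08). On knockdown it rose by 1.29 ± 0.22, to 9.4 to 18 CPM (adjusted p = 0.000846). OTULIN, a deubiquitinase gene, fell by 0.38 ± 0.11 on knockdown (adjusted p = 0.031).

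**Figure D5:**
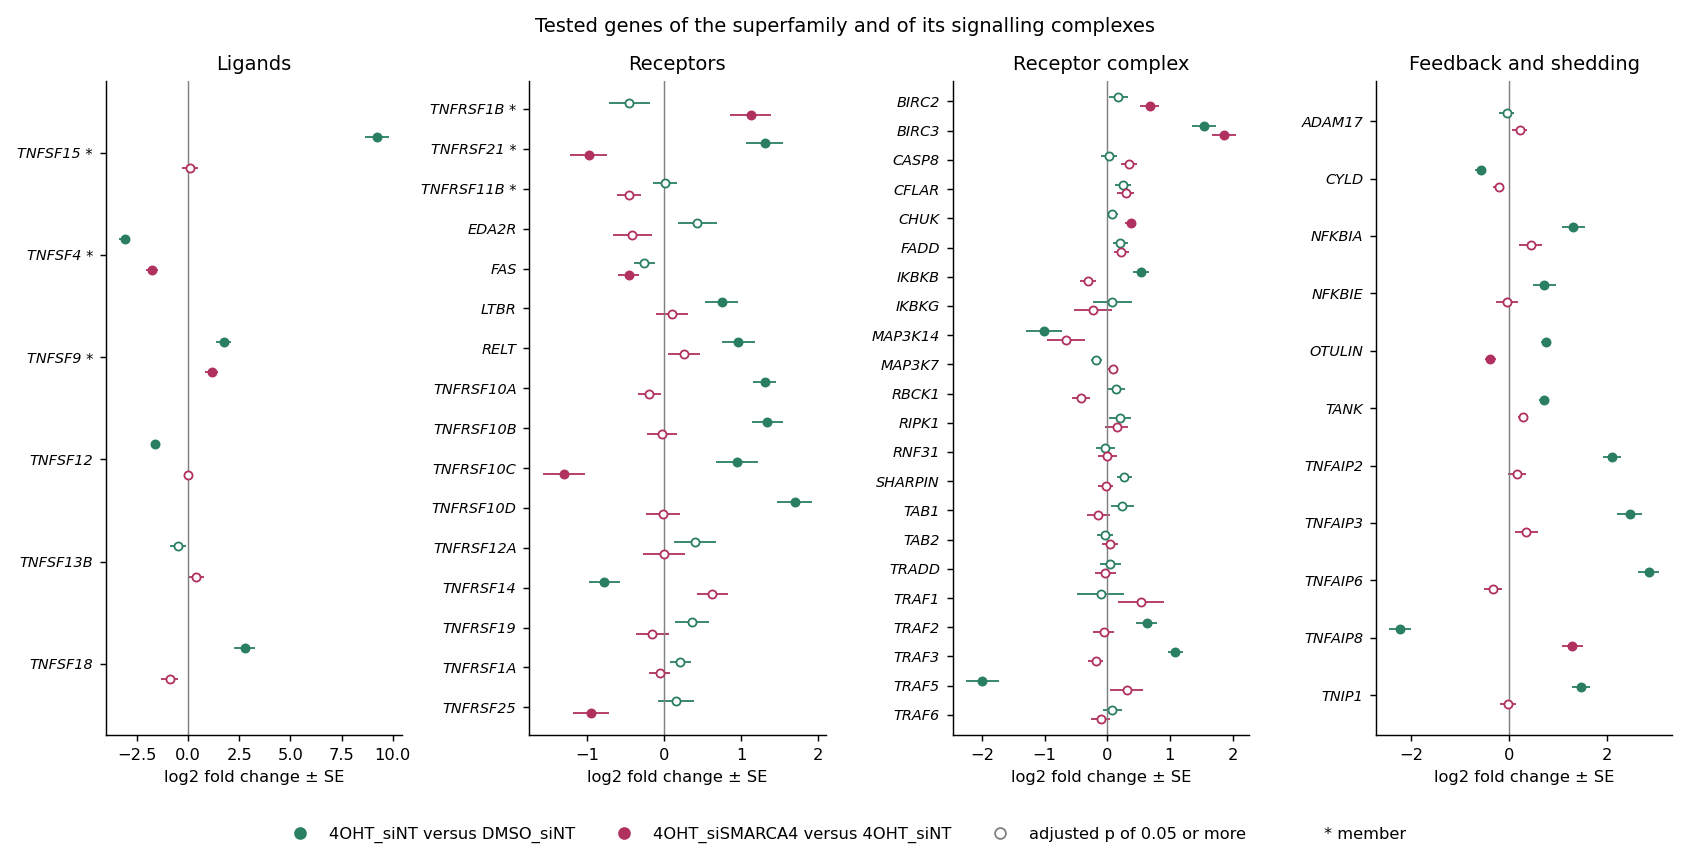
Log2 fold change ± SE of the tested genes in both comparisons, for ligands, receptors, receptor complexes and the feedback and shedding genes, each panel with its own linear axis. Filled points passed an adjusted p of 0.05 and an asterisk marks the 6 tested members. TNFSF15 at 9.22 is the largest change shown, and BIRC3 is the complex gene higher in both comparisons.

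The genes whose log2 CPM followed TNFSF15 most closely over all 18 libraries were IL1B (Pearson r = 0.997), CTSS (0.994), PDPN (0.994), IL1A (0.991) and F2RL1 (0.991). Mean IL1B was 2.38 CPM in growing, 1011 CPM in senescent and 1146 CPM in SMARCA4-depleted cells. The correlation is a description. The libraries share the split between growing and senescent cells, and the correlation within groups was not computed.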

How the data were processed

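The deposited table held raw counts per gene symbol, which the authors had not normalized, with 1 column per library and lane (36 columns). Per the labels and methods, poly(A) RNA gave strand-specific libraries that were sequenced single-end and aligned with STAR 2.7.8a to hg38, and the submitters' notes also name DESeq2 1.36.0. The counting program, annotation and strand setting are not given in the sources used here. TNFRSF1B shares exon with a microRNA gene on its strand, and the other members share none with another gene.

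The 2 lanes of a library were summed to 18 libraries. Of 29 samples in the labels 17 matched a library, and the others were not analysed here. The columns of 1 further library name the set 1VM, which no label with its siRNA carries. It was used as a 4OHT_siSMARCA4 library with no set label. Genes were filtered with filterByExpr (minimum count 10, 13136 genes kept), scaled by TMM and fitted in edgeR 4.0.16 (R 4.3.3) with all libraries together and no covariate, and groups were compared by quasi-likelihood F tests. P-values were adjusted by Benjamini-Hochberg over all genes tested, and a call is an adjusted p under 0.05. SEs come from the F statistic. Levels are CPM on the TMM scale. With totals of 9657309 to 18039313, 1 read equals 0.12 CPM in the shallowest library, and values of a few reads are imprecise. The siRNA numbers were compared in a fit with 6 levels. The 4 members below the filter were tested on log2(CPM + 0.5) with an exact permutation test. Pairs of libraries within a group differed beyond sampling noise (chi-square per degree of freedom 2.33 to 315 over 45 pairs, against 1.19 to 1.27 between lanes), so none was merged. The fits were tested on simulated data.

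The members and the gene lists were chosen with earlier results of these data known. Genes are named by rule: all members, SMARCA4, for each list and comparison the 3 called genes with the largest change (mean log2 CPM over 0), and the 5 genes most correlated with TNFSF15. Alternatives were RLE scaling, DESeq2 1.42.0, no filter, the set as a block, VM sets alone, 2 groups alone, each siRNA alone, a 2-fold threshold and leaving out each library. Treating the unlabelled library as set 1VM in the block, or adding it to the VM sets, was chosen after seeing the data.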

Additional observations from a re-analysis of the deposited data

Results flagged for a closer look

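In DMSO_siNT the level of TNFRSF21 in library 4-2V was 12.2 CPM, against 34.9 to 51.9 CPM in the other 5 libraries. On the log2 CPM scale, on which the test was run, the gap was 0.726 of the range of the group, above the 95% critical value of Dixon's test for 6 samples. On the CPM scale it was 0.572, below that value, and 0 of the 18 sets passed. Of 18 sets of 6 libraries tested (6 members in 3 groups), chance would give about 0.9. The same library had the lowest total and the most genes detected of its group.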

How the results depend on the processing

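In senescence, 4 members were called in all 18 fits that left out 1 library and 4 or 5 under the other settings, TNFRSF1B being the addition with siRNA 2 alone. On knockdown 3 to 5 were called when a library was left out, 1 (TNFSF4) with the set as a replicate block and 0 with siRNA 4 alone. That block ended the calls of TNFSF9 (1.31, adjusted p = 0.146), TNFRSF1B (1.14, adjusted p = 0.155) and TNFRSF21 (-0.93, adjusted p = 0.295). With the unlabelled library put in set 1VM it kept 3 calls and lost TNFRSF21 (-0.96, adjusted p = 0.0737). TNFSF15 was not called on knockdown over all libraries but was called lower within VM sets (-0.74, and -0.68 with the unlabelled library). It was below 0 without a call at -0.85 with the replicate block (adjusted p = 0.473), -0.75 with the unlabelled library in 1VM and -0.19 with siRNA 2 alone. Genes called in senescence numbered 2822 with a 2-fold threshold and 4356 with the replicate block, of 6935. Genes called on knockdown numbered 1397, and 461 with a 2-fold threshold, 236 with the replicate block, 2858 in VM sets, 4064 in VM sets with the unlabelled library, 3405 with 2 groups alone and 370 with siRNA 4 alone. Leaving out 1 library gave 923 to 3269, the highest without DMSO_siNT 4-2V, and 931 and 923 without 4OHT_siSMARCA4 2-3VM and the unlabelled library. The causes were not tested. The set names are shared by 2 sets in each comparison and libraries of a set did not deviate together in every case (correlations -0.04 and 0.27 in senescence, -0.05 and 0.16 on knockdown), so they were not taken as pairs. RLE scaling shifted the median of all genes by 0.01 and -0.01. Depth limits TNF, TNFSF10, TNFRSF9 and CD40, with at most 13 reads a library.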
